A study of Mus musculus with 8 samples.

Results

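Small nucleolar RNAs (snoRNAs) were examined in liver RNA of mice given rilpivirine (RPV) and of control mice. The members were the genes with a single platform symbol that begins with Snora or Snord and a digit. Each was read at its probe set with the highest mean over the 8 arrays, and that mean had to reach 2.72 on the log2 scale, the 25th percentile of all gene means. This gave 72 snoRNAs among 22180 genes with 1 symbol, of which 16633 genes reached the same level and were tested. By symbol, 26 of the 72 belonged to the box H/ACA class (Snora) and 46 to the box C/D class (Snord). The members were thus chosen by their symbol and their mean level over all 8 arrays, which is given only as a description. The array carried 73 such symbols, and Snord91a, with a mean of 2.35, was the 1 outside the threshold. The members nearest above it were Snora19 with a mean of 3.11, Snord92 with 4.19 and Snord53 with 4.24.

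The study compared 4 liver samples of RPV-treated mice with 4 liver samples of control mice, measured on an array each. RPV is a non-nucleoside inhibitor of the HIV reverse transcriptase, and it was given by mouth every day at a dose stated only as comparable to that of patients; what the control mice received is not given in the sources used here. All 8 samples were of wild-type C57BL/6 mice and were described as non-alcoholic fatty liver disease. The protocol names a normal diet and a diet with 60% fat over 3 months, but assigns neither to a sample, and it gives no age. Whether samples of a group are separate mice is not stated in the labels. The p-values therefore reflect only the spread between these samples, which may be technical, and the number of arrays limits the precision. Hepatocyte transcripts marked the tissue as labelled. Albumin (Alb) averaged 13.30 ± 0.05 log2 in RPV livers and 13.25 ± 0.02 log2 in control livers (SD, n = 4 each), and all 8 hepatocyte markers were above the level threshold.

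snoRNAs are short nuclear RNAs that direct chemical changes in ribosomal RNA by base pairing. Box C/D snoRNAs carry the methyltransferase fibrillarin and direct 2′-O-methylation, box H/ACA snoRNAs carry the pseudouridine synthase dyskerin and direct pseudouridylation, and a few of either class are needed for cleavage of the ribosomal RNA precursor instead. In mammals most are cut from introns of a host gene, often a gene for a ribosomal protein, a translation factor or a non-coding RNA, while U8 and U13 are transcribed from genes of their own. An array probe set does not tell a mature snoRNA from host precursor RNA that still holds it. In tissue RNA, fewer cells of a type and less RNA per cell cannot be told apart.

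The arrays differed in their snoRNA level across both groups, and a pair of them stood apart. RPV replicate 2 held the highest value of 47 of the 72 snoRNAs (65.3%), while it held the highest value of 18.8% of all genes tested. Control replicate 1 held the lowest value of 52 of the 72 (72.2%), against 12.5% of all genes. The mean deviation of the 72 snoRNAs from their 8-array means was 0.27, 0.49, 0.03 and -0.21 log2 in RPV replicates 1 to 4, and -0.63, 0.28, -0.04 and -0.19 log2 in control replicates 1 to 4. The groups overlapped on this measure: control replicate 2 lay as high as RPV replicate 1, and RPV replicate 4 as low as control replicate 4. RPV replicate 2 also had the lowest mean correlation with the other arrays over all probe sets, 0.965 against 0.976 to 0.981 for the others, whereas control replicate 1 did not stand apart there. Array medians over all probe sets lay between 3.33 and 3.45 log2. The part of these array differences in the results below was not tested, and results are given with and without both arrays.

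**Figure D1:**
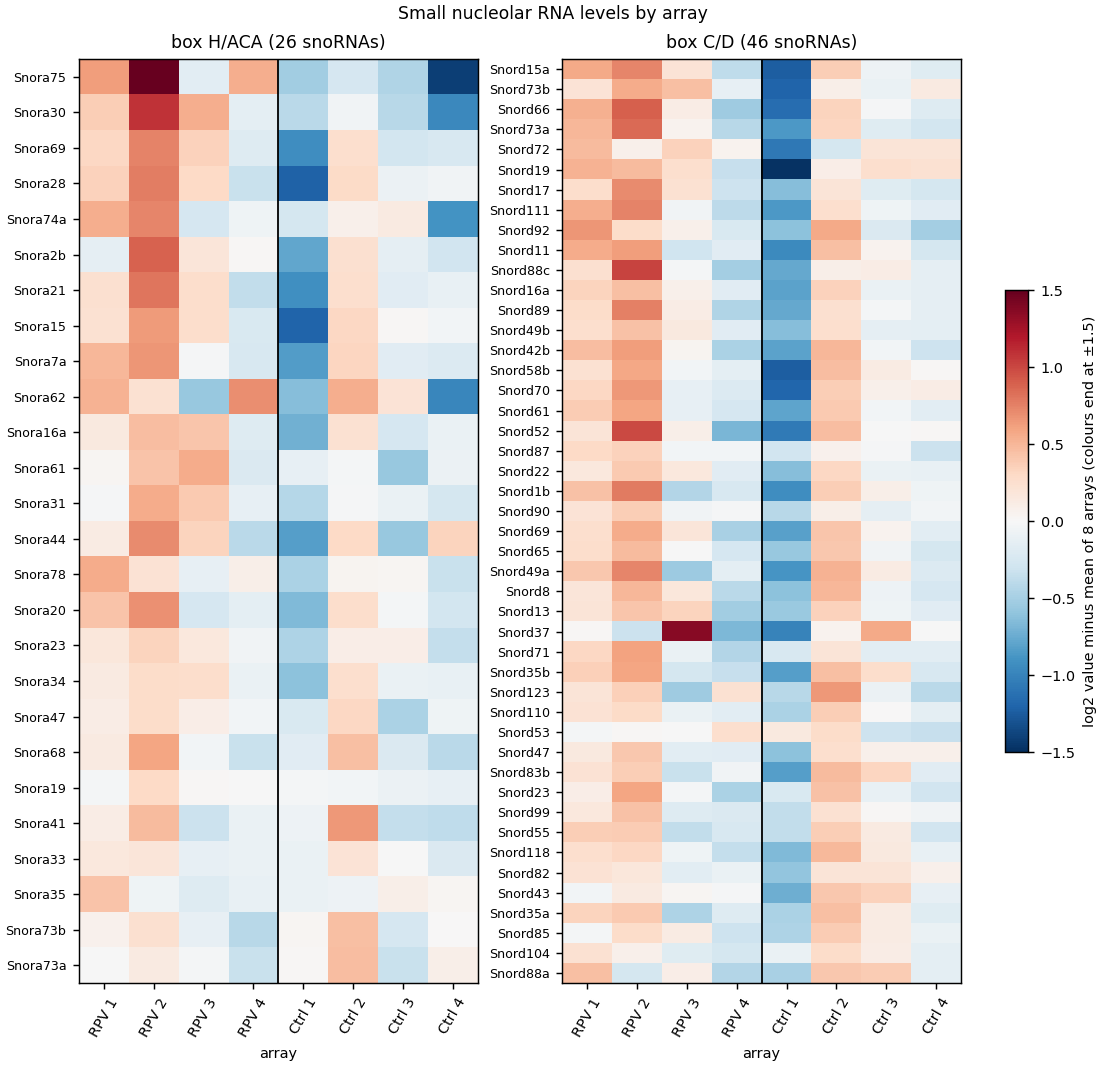
Log2 value of each of the 72 snoRNAs (rows) minus its own mean over the 8 arrays, by array (columns), with RPV arrays left of the line and control arrays right of it and rows ordered by the difference between groups. Colours end at ±1.5 log2. RPV replicate 2 is red in most rows and control replicate 1 is blue in most rows of both classes.

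Most snoRNAs had a higher mean in RPV livers, by small amounts, and none passed the test. Of the 72, 68 had a log2 difference (RPV minus control) above 0 and 4 below it, whereas 43.1% of all 16633 genes had a difference above 0. The median difference of the snoRNAs was 0.29 log2, with quartiles of 0.12 and 0.42 and a range of -0.11 to 1.33, and the median of all genes was -0.03. limma with Benjamini-Hochberg adjustment over all genes called 0 snoRNAs and 0 of all genes at an adjusted p of 0.05, and the smallest adjusted p of a snoRNA was 0.777. At an unadjusted p under 0.05 were 4 snoRNAs of the 72, as were 5.21% of all genes, and these 4 had the higher mean in RPV livers. The RPV and control arrays did not overlap for 1 snoRNA, Snora75, with RPV above control, as for 1.30% of all genes, and for none with RPV below control, as for 1.73% of all genes. The snoRNAs were more variable than other genes: their median SD within groups was 0.42 log2 against 0.21 for all genes, and the median range over the 8 arrays was 1.22 log2 against 0.63.

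Without RPV replicate 2 and control replicate 1 together, which were chosen for their snoRNA level after the data were seen, 34 of the 72 differences were above 0 and the median was -0.01 log2. Part of that change follows from the choice of those arrays. Snora75 and Snora30 were the only 2 snoRNAs at an unadjusted p under 0.05 without both arrays. Leaving out control replicate 1 alone gave 51 of 72 above 0, and leaving out RPV replicate 2 alone gave 59 of 72.

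**Figure D2:**
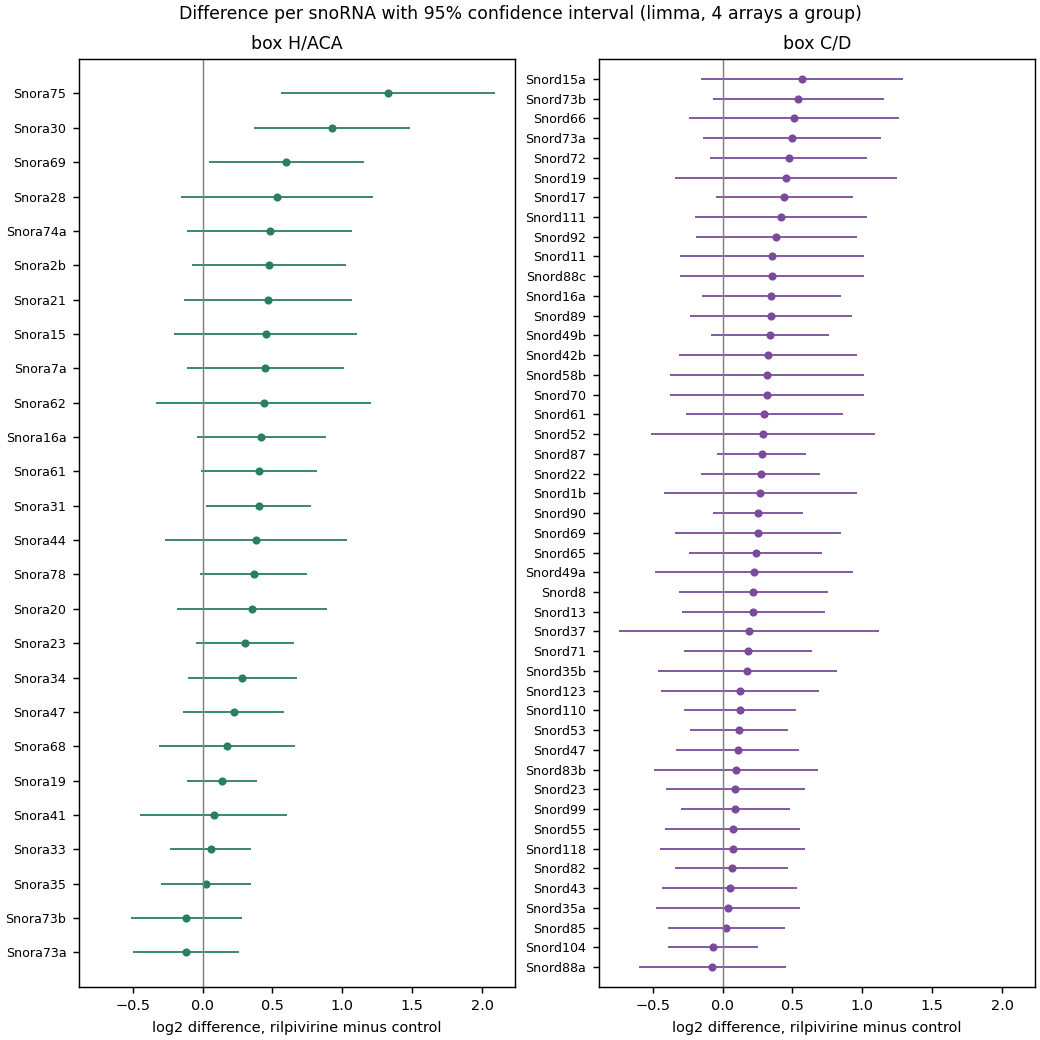
Difference in log2 value, RPV minus control, for each snoRNA, box H/ACA on the left and box C/D on the right; points are limma estimates and bars their 95% confidence intervals (4 arrays a group). The interval lies above 0 for Snora75, Snora30, Snora69 and Snora31 and includes 0 for the other 68.

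The box H/ACA class, which guides pseudouridylation, held all 4 snoRNAs at an unadjusted p under 0.05 in the analysis reported. Of all genes tested, 5.21% were at such a p, and C/D members were too under some alternatives, given below. Of its 26 members, 24 had a higher mean in RPV livers, with a median difference of 0.39 log2. Snora75, an H/ACA RNA that lies within the nucleolin gene, measured 6.97, 7.97, 6.19 and 6.89 log2 in RPV replicates 1 to 4, against 5.81, 6.09, 5.88 and 4.92 log2 in control replicates 1 to 4. Every RPV array was above every control array, although RPV replicate 3 and control replicate 2 lay close together. Its difference was 1.33 ± 0.35 log2 (SE), a 2.51-fold higher mean with an interval of 0.56 to 2.09 log2 (limma, unadjusted p = 0.00291; Benjamini-Hochberg adjusted p = 0.777). Leaving out each array in turn gave differences of 1.003 to 1.60 log2.

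Snora30, which lies within Srcap, a gene for a chromatin remodelling ATPase, measured 8.59, 9.31, 8.77 and 8.08 log2 in RPV livers and 7.82, 8.17, 7.81 and 7.26 log2 in control livers. RPV replicate 4 was the low one of its group and fell below control replicate 2, so the groups overlapped by 1 array on each side. The difference was 0.93 ± 0.25 log2 (limma, unadjusted p = 0.00393; Benjamini-Hochberg adjusted p = 0.777). Both Snora75 and Snora30 were highest in RPV replicate 2, as most snoRNAs were, but lowest in control replicate 4, not in control replicate 1. Without RPV replicate 2 their differences were 1.003 log2 (Snora75) and 0.72 log2 (Snora30). With the mean level of the 70 snoRNAs other than this pair as a covariate, an alternative added after seeing the data, Snora75 differed by 1.10 ± 0.34 log2 (unadjusted p = 0.00727 in limma) and Snora30 by 0.71 ± 0.23 log2 (unadjusted p = 0.00912), both at a Benjamini-Hochberg adjusted p of 0.995.

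Snora69, within the ribosomal protein gene Rpl39, measured 9.08, 9.52, 9.11 and 8.57 log2 in RPV livers and 7.83, 9.03, 8.49 and 8.53 log2 in control livers. Control replicate 1 was the low array and control replicate 2 reached into the RPV range. Its difference was 0.60 ± 0.25 log2 (unadjusted p = 0.0369 in limma), and it was 0.27 ± 0.13 log2 with that covariate, a mean of 70 snoRNAs that includes Snora69. Snora31, within Tpt1, the gene of a translationally controlled tumour protein, measured 7.90, 8.48, 8.31 and 7.79 log2 in RPV livers and 7.49, 7.91, 7.82 and 7.66 log2 in control livers. RPV replicates 1 and 4 lay among the control arrays, and the difference was 0.40 ± 0.17 log2 (unadjusted p = 0.0385 in limma).

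The H/ACA members with the next smallest p were Snora61, with a difference of 0.40 ± 0.19 log2 (unadjusted p = 0.0548 in limma), and Snora78, with 0.37 ± 0.17 log2 (unadjusted p = 0.0593). Snora78 was highest in RPV replicate 1, at 5.12 log2, and lowest in control replicate 1, at 4.09 log2. Snora28, within the translation factor gene Eif5, measured 9.58, 10.00, 9.53 and 8.90 log2 in RPV livers and 8.02, 9.52, 9.15 and 9.19 log2 in control livers, a difference of 0.53 ± 0.31 log2. Control replicate 1 lay far below the other 7 arrays. Snora62, known from frog oocytes as an RNA needed for cleavage of the ribosomal RNA precursor, had another profile, with 10.45, 10.16, 9.36 and 10.62 log2 in RPV livers and 9.29, 10.48, 10.13 and 8.95 log2 in control livers. Both groups held high and low arrays, and the difference was 0.44 ± 0.35 log2.

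A further 16 H/ACA members had differences of 0.03 to 0.48 log2, each with an interval that included 0. Snora33, within Rps12, had a difference of 0.06 ± 0.13 log2, and a second probe set of the same symbol had -0.08 ± 0.14 log2. Snora34, Snora16a and Snora23 had differences of 0.28 ± 0.18, 0.42 ± 0.21 and 0.30 ± 0.16 log2, and all 3 were highest in RPV replicate 2 and lowest in control replicate 1. Snora19, the member nearest the level threshold, measured 3.07, 3.41, 3.13 and 3.10 log2 in RPV livers and 3.08, 3.07, 3.01 and 2.99 log2 in control livers, so that a single RPV array stood above the rest. Snora74a, within Snhg4, had the largest difference among them, 0.48 ± 0.27 log2, and was lowest in control replicate 4. Snora35, within the serotonin receptor gene Htr2c, had a difference of 0.03 ± 0.15 log2 and was highest in RPV replicate 1.

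Snora73a and Snora73b, the mouse copies of the U17 RNA that is needed for cleavage near the small-subunit RNA in frog and yeast, were the 2 H/ACA members with a lower mean in RPV livers. Snora73a measured 9.14, 9.28, 9.12 and 8.82 log2 in RPV livers and 9.16, 9.61, 8.81 and 9.23 log2 in control livers. Snora73b measured 9.61, 9.78, 9.42 and 9.12 log2 in RPV livers and 9.56, 9.99, 9.28 and 9.54 log2 in control livers. The pair had the same order of arrays at the top, with control replicate 2 above RPV replicate 2, and control replicate 1 was not low in either. Their differences were -0.11 ± 0.17 and -0.11 ± 0.18 log2, and each was above 0 without control replicate 2. Near-identical copies can share probes, so these are not independent measurements.

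**Figure D3:**
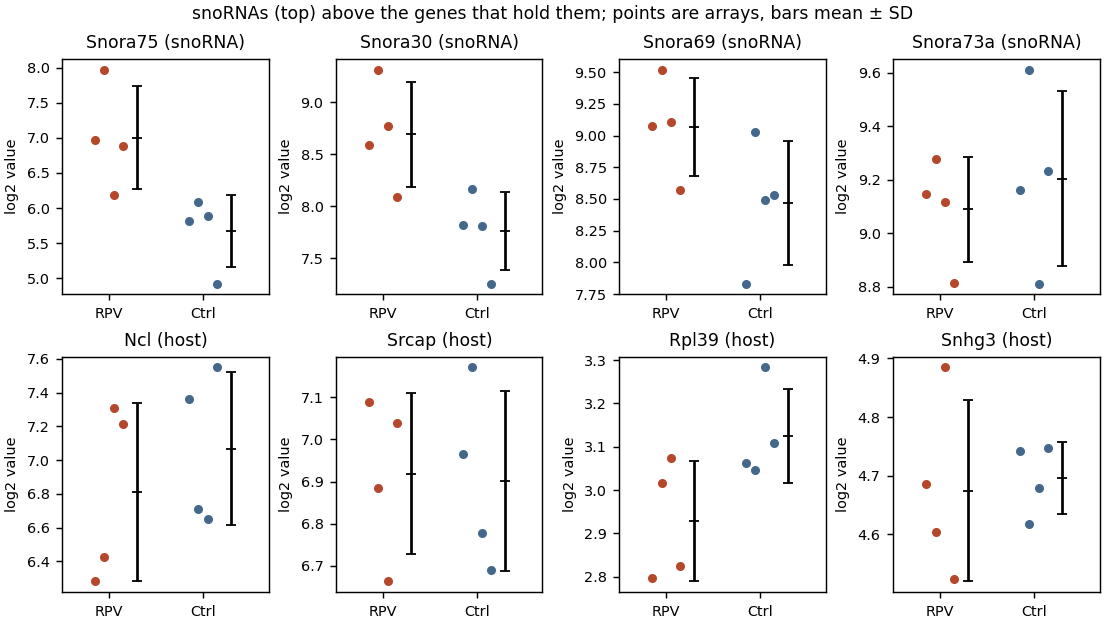
Log2 values of 4 H/ACA snoRNAs (top row) and of the genes that hold them (bottom row), with RPV left of control; points are arrays and bars the mean ± SD (n = 4 a group), and each panel has its own axis range. The RPV points of Snora75 all lie above the control points, while those of its host Ncl overlap; the points of Snora73a and its host Snhg3 overlap too.

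The box C/D class, which guides 2′-O-methylation, had 44 of 46 members with a higher mean in RPV livers and a median difference of 0.25 log2, and none at an unadjusted p under 0.05 (smallest adjusted p of 0.891 in limma with Benjamini-Hochberg adjustment). The member with the smallest p was Snord17, a long C/D RNA within Snx5, which measured 9.50, 9.95, 9.46 and 8.92 log2 in RPV livers and 8.60, 9.43, 9.06 and 8.98 log2 in control livers. RPV replicate 4 lay among the control arrays and control replicate 2 close to the RPV ones, and the difference was 0.44 ± 0.22 log2 (unadjusted p = 0.0732 in limma). Snord73b, within the ribosomal protein gene Rps3a1, measured 10.26, 10.62, 10.52 and 9.94 log2 in RPV livers and 8.86, 10.15, 9.96 and 10.20 log2 in control livers, a difference of 0.54 ± 0.28 log2 (unadjusted p = 0.0766 in limma). Control replicate 1 was more than 1 log2 unit below each other array of its group. Snord87, within Snhg6, measured 11.39, 11.45, 11.05 and 11.06 log2 in RPV livers and 10.81, 11.17, 11.08 and 10.78 log2 in control livers, a difference of 0.28 ± 0.14 log2 (unadjusted p = 0.0778 in limma). RPV replicates 3 and 4 lay below control replicates 2 and 3.

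The next C/D members by p were Snord72, Snord49b and Snord90, with differences of 0.47 ± 0.25, 0.34 ± 0.19 and 0.26 ± 0.15 log2. Snord72, within Rpl37, differed from most in that RPV replicate 2, at 6.84 log2, was not its highest array: RPV replicate 1 was, at 7.24 log2, and control replicate 1 was the low one at 5.69 log2. Snord16a, within Rpl4, and Snord22, within Snhg1, had differences of 0.35 ± 0.22 and 0.27 ± 0.19 log2. Both followed the common order, with RPV replicate 2 at the top and control replicate 1 at the bottom. Snord99, within Snhg12, had a difference of 0.09 ± 0.18 log2. The largest C/D difference was that of Snord15a, within Rps3, at 0.57 ± 0.33 log2 with an interval of -0.16 to 1.29 log2, and the interval of every C/D member included 0.

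The C/D members that varied most over the arrays were Snord37, Snord19, Snord66 and Snord52. Snord37, within the elongation factor gene Eef2, measured 4.42, 4.08, 5.77 and 3.73 log2 in RPV livers and 3.40, 4.45, 4.98 and 4.40 log2 in control livers. It was highest in RPV replicate 3, where the snoRNAs as a set lay near their mean. Its difference was 0.19 ± 0.42 log2, and -0.23 log2 without that replicate. Snord19, within Gnl3, measured 4.79, 4.74, 4.51 and 3.92 log2 in RPV livers and 2.78, 4.36, 4.52 and 4.50 log2 in control livers, so that control replicate 1 stood far below the other 7 arrays. Snord66, within Eif4g1, had a difference of 0.51 ± 0.34 log2, and Snord52 one of 0.29 ± 0.36 log2. Without control replicate 1 the difference of Snord52 was -0.02 log2.

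Snord104 and Snord88a were the 2 C/D members with a lower mean in RPV livers, by -0.07 ± 0.15 and -0.07 ± 0.24 log2. Snord104 measured 12.35, 12.20, 11.95 and 11.86 log2 in RPV livers and 12.02, 12.40, 12.24 and 11.98 log2 in control livers, a narrow range with overlapping groups. Of the 2 C/D members nearest the level threshold, Snord92 had a difference of 0.38 ± 0.26 log2 and Snord53 one of 0.12 ± 0.16 log2.

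snoRNAs that act in cleavage or other modification of the ribosomal RNA precursor were listed apart, and 6 of the 12 listed were measured by a probe set of their own. Of these, 4 had a higher and 2 a lower mean in RPV livers, none at an unadjusted p under 0.05, with a median difference of 0.15 log2. Snord118 (U8), needed for the large-subunit RNAs in frog oocytes, measured 7.69, 7.75, 7.38 and 7.08 log2 in RPV livers and 6.78, 7.93, 7.58 and 7.33 log2 in control livers. The highest and the lowest array were both controls, and the difference was 0.07 ± 0.23 log2. Snord13 (U13), an adaptor for acetylation of the small-subunit RNA in human cells, measured 9.05, 9.27, 9.19 and 8.33 log2 in RPV livers and 8.29, 9.20, 8.79 and 8.68 log2 in control livers, a difference of 0.22 ± 0.23 log2. These 2 RNAs have no host gene in the annotation used, and control replicate 1 was their lowest array, as it was for most snoRNAs that lie within a named gene.

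Snord35a, from the ribosomal protein gene Rpl13a, belongs to a set of snoRNAs known from hamster ovary cells to be needed for death under lipid overload; it was the 1 of the 4 listed that was measured alone. It measured 10.81, 10.86, 10.01 and 10.28 log2 in RPV livers and 9.99, 10.92, 10.60 and 10.29 log2 in control livers. The groups covered almost the same range, the difference was 0.04 ± 0.23 log2, and its interval ran from -0.48 to 0.56 log2. Snord47, from the growth arrest transcript Gas5, measured 11.47, 11.72, 11.17 and 11.15 log2 in RPV livers and 10.71, 11.57, 11.40 and 11.40 log2 in control livers, a difference of 0.11 ± 0.20 log2. It was -0.08 log2 without control replicate 1.

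The classes shared most of their variation over arrays and differed in a part of it. The mean deviation of the H/ACA members was 0.23, 0.54, 0.07 and -0.11 log2 in RPV replicates 1 to 4 and -0.49, 0.21, -0.17 and -0.29 log2 in control replicates 1 to 4. That of the C/D members was 0.29, 0.47, -0.00 and -0.26 log2 in RPV livers and -0.71, 0.32, 0.03 and -0.14 log2 in control livers. The C/D mean minus the H/ACA mean was 0.06, -0.07, -0.08 and -0.15 log2 in RPV livers and -0.22, 0.11, 0.21 and 0.15 log2 in control livers. Control replicates 2 to 4 lay above every RPV array on that contrast and control replicate 1 below every one, so the groups overlapped. RPV replicate 2 was the highest array for 30 of 46 C/D and 17 of 26 H/ACA members, a like share. Control replicate 1 was the lowest array for 39 of 46 C/D members and 13 of 26 H/ACA members, while control replicate 4 was the lowest for 2 C/D and 8 H/ACA members. Without RPV replicate 2 and control replicate 1 together, 20 of 26 H/ACA differences were above 0, with a median of 0.08 log2, and 14 of 46 C/D differences, with a median of -0.07 log2.

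**Figure D4:**
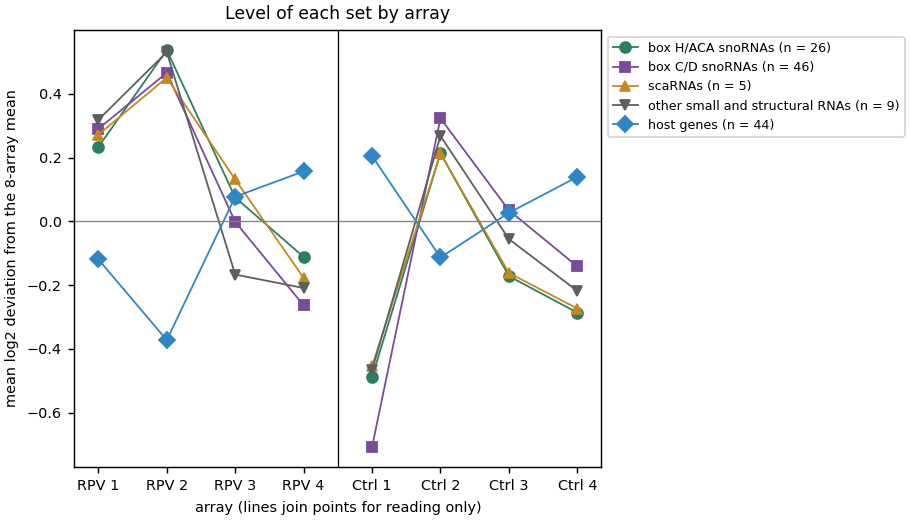
Mean log2 deviation from the 8-array mean for 5 sets of genes (y axis) in each array (x axis), RPV left of the line and control right of it; lines only join the points of a set. The H/ACA, C/D, scaRNA and other small RNA sets peak in RPV replicate 2 and are lowest in control replicate 1, and the host genes are lowest in RPV replicate 2 and highest in control replicate 1.

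Most host genes had a lower mean in RPV livers, the other direction than most of the snoRNAs they hold, though not without RPV replicate 2 and control replicate 1. Of the 72 members, 69 lay within the span of a named gene in the RefSeq table, in 55 distinct hosts, of which 44 were tested. The hosts had 8 differences above 0 (18.2%) and 36 below, a median of -0.12 log2, and none at an unadjusted p under 0.05 in limma. Of all genes tested, 43.1% had a difference above 0, with a median of -0.03 log2, and 5.21% were at such a p. Among the 58 snoRNAs with a tested host, 56 had a larger log2 difference than the host, and 46 had a higher mean in RPV livers while the host had a lower one. The median of snoRNA minus host difference was 0.44 log2. Without both arrays that stood apart, 26 of the 44 host differences were above 0 and the host median was 0.03 log2, and without RPV replicate 2 alone 19 were above 0 with a median of -0.02 log2. Without both arrays, 27 of the 58 had a larger difference than the host and the median was -0.03 log2. The host set's mean deviation was -0.12, -0.37, 0.08 and 0.16 log2 in RPV replicates 1 to 4 and 0.21, -0.11, 0.03 and 0.14 log2 in control replicates 1 to 4. It was lowest in the array where the snoRNAs were highest and highest in the array where they were lowest. Among all genes tested, RPV replicate 2 held the lowest value of 30.2%, the largest share of any array. Control replicate 1 held the highest value of 14.2% of all genes tested.

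By kind of host the counts were as follows, beside 43.1% of all genes tested with a difference above 0. The 18 snoRNAs within ribosomal protein genes all had a higher mean in RPV livers, with a median difference of 0.34 log2. Of their 11 tested hosts, 10 had a lower mean, with a median of -0.20 log2, which is the value of Rpl39. Rpl39 and Rpl17 were read near the level threshold, at 2.80 to 3.28 and 2.74 to 3.46 log2 over the arrays. Rpl37, the 1 host with a higher mean, measured 3.74 to 4.20 log2. Differences at such low levels are weak measures of host RNA, and they also count in the host totals above. Of the 18 snoRNAs within long non-coding RNA genes, 15 had a higher mean (median 0.27 log2), and all 9 tested hosts a lower one (median -0.12 log2). Of these 9, Snhg18 was also read near the level threshold, at 2.95 to 3.33 log2. Snhg12, whose value is that median, was read at 3.27 to 3.98 log2. Of the 33 within other protein-coding genes, 32 had a higher mean (median 0.30 log2), and 17 of 24 tested hosts a lower one (median -0.10 log2).

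**Figure D5:**
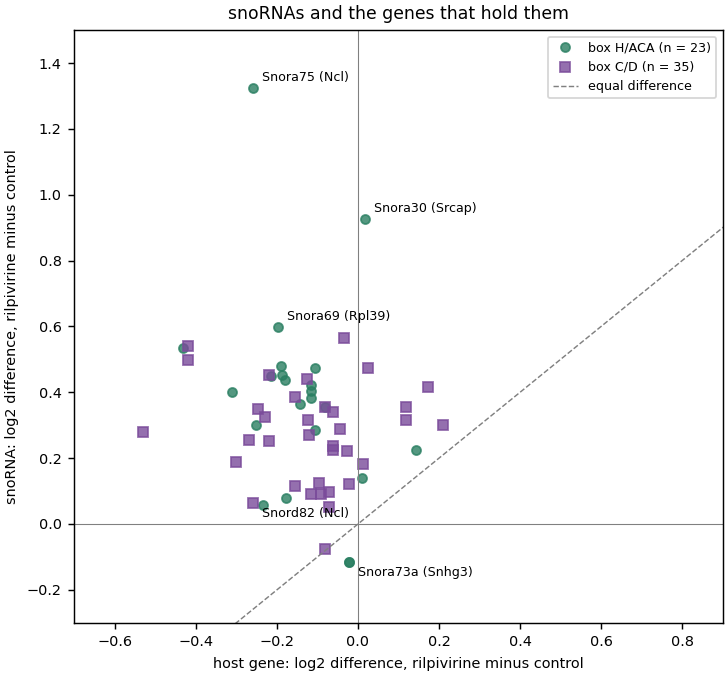
Log2 difference, RPV minus control, of 58 snoRNAs (y axis) against that of the gene that holds each (x axis), for 23 box H/ACA and 35 box C/D snoRNAs; the dashed line marks equal differences, and snoRNAs of 1 gene share an x value. Of the 58 points, 56 lie above the dashed line. Snora75 at 1.33 log2 and Snord82 at 0.06 log2 share the host Ncl at -0.26 log2.

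snoRNAs of 1 host did not always have like differences. Nucleolin (Ncl), a nucleolar protein that binds ribosomal RNA precursor, measured 6.29, 6.43, 7.31 and 7.22 log2 in RPV livers and 7.36, 6.71, 6.65 and 7.55 log2 in control livers, a difference of -0.26 ± 0.28 log2. Its 2 snoRNAs were Snora75, described above, and Snord82, which measured 10.95, 10.91, 10.58 and 10.65 log2 in RPV livers and 10.15, 10.93, 10.94 and 10.81 log2 in control livers. Apart from a low control replicate 1, Snord82 had overlapping groups and a difference of 0.06 ± 0.18 log2. Snhg12, a non-coding host gene read at a low level, had a difference of -0.12 ± 0.18 log2. Its 3 H/ACA members, Snora16a, Snora61 and Snora44, had differences of 0.42, 0.40 and 0.38 log2, and its C/D member Snord99 one of 0.09 log2. Snhg3, with -0.02 ± 0.12 log2, held Snora73a and Snora73b, both at -0.11 log2. Rps3a1, with -0.42 ± 0.20 log2, held Snord73a at 0.50 log2 and Snord73b at 0.54 log2, and Nop58, which encodes a core C/D protein, had 0.12 ± 0.32 log2 and held Snord11 at 0.35 log2 and Snord70 at 0.32 log2. Srcap, the host of Snora30, measured 7.09, 6.88, 6.66 and 7.04 log2 in RPV livers and 6.97, 7.17, 6.78 and 6.69 log2 in control livers, with overlapping groups and a difference of 0.02 ± 0.14 log2.

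The start regions of 4 hosts are shown because they hold the 2 snoRNAs with the smallest p (Ncl, Srcap), 4 snoRNAs of both classes (Snhg12) or the H/ACA pair with a lower mean in RPV livers (Snhg3). Many snoRNA hosts start transcription in a pyrimidine tract, a feature of genes whose output follows growth and nutrient signals. The sequences run from 60 bases before to 40 bases after the annotated start, 5′ to 3′ on the gene's strand, from RefSeq on GRCm38.p6. Capitals mark a tract of C followed by at least 6 bases of C or T that begins within 20 bases of the start, and the motif TATA between 40 and 20 bases before it; only the gene's strand was searched.
Ncl, chr1:86359416-86359515, minus strand: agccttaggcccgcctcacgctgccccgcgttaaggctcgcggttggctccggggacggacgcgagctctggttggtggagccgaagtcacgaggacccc
Srcap, chr7:127511923-127512022, plus strand: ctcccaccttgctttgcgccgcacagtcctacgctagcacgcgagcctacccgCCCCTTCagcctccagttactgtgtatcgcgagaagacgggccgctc
Snhg12, chr4:132308618-132308717, plus strand: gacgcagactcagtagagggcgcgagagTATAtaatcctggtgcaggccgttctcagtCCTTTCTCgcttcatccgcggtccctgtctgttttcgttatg
Snhg3, chr4:132353647-132353746, minus strand: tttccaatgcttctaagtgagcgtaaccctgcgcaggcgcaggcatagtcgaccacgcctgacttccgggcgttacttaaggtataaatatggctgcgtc

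Snhg12 held a tract of 8 bases and a TATA motif, Srcap a tract of 7 bases, and Ncl and Snhg3 held neither motif at the positions searched. The letters TATA in the Snhg3 sequence lie after the annotated start, outside those positions, and were not counted. Of the 44 host genes with a start region in the RefSeq table, 13 (29.5%) held such a tract in 1 region or more and 6 (13.6%) the TATA motif. Among all 27025 genes in that table the shares were 23.6% and 6.79%. A match of letters is not evidence of a site in use.

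Genes for the proteins that bind, build and trim snoRNAs had no common direction. The 3 measured C/D core proteins had differences of -0.02 ± 0.31 log2 (Nop56), 0.12 ± 0.32 log2 (Nop58) and -0.10 ± 0.15 log2 (Snu13). The 4 H/ACA core proteins had differences of 0.01 ± 0.21 log2 (Dkc1, dyskerin), 0.06 ± 0.11 log2 (Nhp2), -0.17 ± 0.15 log2 (Nop10) and -0.10 ± 0.15 log2 (Gar1). None of these 7 was at an unadjusted p under 0.05. Of 13 assembly factors, 8 had a higher and 5 a lower mean in RPV livers, with Tgs1, which modifies the cap of some snoRNAs, at -0.36 ± 0.23 log2. Of 9 genes for intron excision and end trimming, 4 had a higher and 5 a lower mean. The smallest p among them was that of Tent4b, with -0.25 ± 0.17 log2. The exosome nuclease Exosc10 had 0.19 ± 0.16 log2 and the exonuclease Xrn2 -0.19 ± 0.21 log2. None of these 22 genes was at an unadjusted p under 0.05 either. Of 12 genes of the nucleolus and of RNA polymerase I, which transcribes ribosomal RNA, 4 had a higher and 8 a lower mean, and 1 was at such a p: Heatr1, a factor of the small-subunit processome, measured 5.95, 5.88, 5.82 and 6.12 log2 in RPV livers and 5.78, 5.82, 5.55 and 5.45 log2 in control livers (difference 0.29 ± 0.13 log2, limma unadjusted p = 0.0420, Benjamini-Hochberg adjusted p = 0.891).

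Other small RNAs, taken as sets, were highest in RPV replicate 2 and lowest in control replicate 1, as the snoRNAs were. The scaRNAs, which guide modification of spliceosomal RNAs in Cajal bodies, had 5 of 5 differences above 0 and a median of 0.27 log2. Their mean deviation was 0.27, 0.45, 0.13 and -0.18 log2 in RPV livers and -0.45, 0.21, -0.16 and -0.27 log2 in control livers. Scarna6 was the 1 at an unadjusted p under 0.05, with 9.52, 10.20, 9.87 and 9.04 log2 in RPV livers and 8.57, 9.48, 9.14 and 8.94 log2 in control livers (difference 0.62 ± 0.25 log2, limma unadjusted p = 0.0305, Benjamini-Hochberg adjusted p = 0.891). RPV replicate 4 lay among the control arrays. Of 9 other small and structural RNAs, 8 had a difference above 0, with a median of 0.24 log2 and none at such a p. These included Rny1, a Y RNA bound by the Ro protein, at 0.48 ± 0.29 log2, the telomerase RNA Terc, which carries an H/ACA domain, at 0.38 ± 0.27 log2, the minor spliceosomal RNA Rnu11 at 0.29 ± 0.17 log2 and Rn7sk, which restrains transcription elongation, at 0.07 ± 0.10 log2. Rnu3a, the U3 RNA of the small-subunit processome and itself of the C/D class, had -0.06 ± 0.25 log2 and was highest in RPV replicate 1 and lowest in RPV replicate 3. The vault RNA Vaultrc5, a cytoplasmic RNA, was lowest in RPV replicate 4. The mean deviation of these 9 RNAs was 0.32, 0.53, -0.17 and -0.21 log2 in RPV livers and -0.47, 0.27, -0.06 and -0.22 log2 in control livers, with the same highest and lowest arrays as the scaRNAs.

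Taken as a set, long nuclear RNAs were lowest in RPV replicate 2, which held the lowest value of 30.2% of all genes tested. The set was high in control replicate 1 and highest in RPV replicate 4. The 7 listed had a mean deviation of -0.21, -0.37, 0.03 and 0.31 log2 in RPV livers and 0.26, 0.04, -0.27 and 0.22 log2 in control livers, with 2 differences above 0 and 5 below. Malat1, a nuclear speckle RNA, had a difference of -0.22 ± 0.27 log2 and Neat1, the scaffold of paraspeckles, one of -0.15 ± 0.22 log2. Of 15 long non-coding RNAs annotated as snoRNA hosts, 7 had a higher and 8 a lower mean in RPV livers, and 2 were at an unadjusted p under 0.05, both higher. Snhg11 measured 4.29, 4.17, 4.11 and 3.98 log2 in RPV livers and 3.49, 3.83, 3.84 and 3.79 log2 in control livers (difference 0.40 ± 0.12 log2, limma unadjusted p = 0.00810, Benjamini-Hochberg adjusted p = 0.813). Its groups did not overlap. Snhg17 had a difference of 0.67 ± 0.26 log2 (limma unadjusted p = 0.0286, Benjamini-Hochberg adjusted p = 0.891), and no measured snoRNA of this set lay in either gene.

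Markers of sinusoidal endothelial cells, which line the liver's capillaries, had the direction of most snoRNAs. All 5 of them had a higher mean in RPV livers, with a median difference of 0.40 log2, and Kdr, Oit3 and Stab2 were at an unadjusted p under 0.05. The mean deviation of this list was 0.31, 0.23, 0.28 and -0.18 log2 in RPV livers and -0.37, -0.11, 0.02 and -0.17 log2 in control livers, and the mean levels of its markers lay between 7.34 and 8.88 log2. The 4 measured lymphocyte markers had differences above 0 too, with a median of 0.13 log2 and Cd79a at an unadjusted p under 0.05, while hepatocyte, Kupffer cell, stellate cell and cholangiocyte markers had medians of -0.08, -0.04, -0.04 and 0.06 log2. The part of these cell types in the snoRNA differences was not tested.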

How the data were processed

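The authors deposited log2 expression values of 41345 probe sets, made with RMA according to the submitters' processing notes, which also name limma, both without a version. They came from total RNA extracted with Trizol (300 ng per sample), per the labels' protocols. RMA equalises signal between arrays, so a shift in the total amount of RNA could not be seen. Values ran from 0.696 to 13.4. Of the probe sets, 23521 had 1 gene symbol in the platform annotation, 1814 several and 16010 none listed. The probe set with the highest mean stood for a symbol (22180 genes), and genes under a mean of 2.72 log2 were left out.

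A linear model without covariates was fitted to 16633 genes (limma 3.58.1, functions lmFit and eBayes, R 4.3.3). Tests were two-sided, p-values were adjusted by Benjamini-Hochberg over all genes, the threshold was 0.05 and intervals are 95%. The fit was tested on simulated data. A host was the smallest named gene whose span holds the snoRNA in RefSeq's table of GRCm38.p6, in which all 72 symbols were found; strand was not used. Array profiles are means over members of the deviation from each gene's 8-array mean. Python 3.11.15 with matplotlib 3.10.9 drew the figures.

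The members, gene lists and tests were chosen with earlier results of these data known. Named in each class were the 6 snoRNAs with the smallest p, the 4 with the highest mean and the 4 with the largest SD over arrays, those nearest the level threshold, and the listed cleavage, Rpl13a, Gas5 and Snhg1 snoRNAs; of other genes, hosts, core proteins and the smallest p of the protein lists. Snord82, Snord88a, Snord15a, Snora35, Snora44, Snora74a and further snoRNAs of shared hosts, and the genes named in the small RNA and marker lists, were added after their values were seen. Alternatives were other moderation, array weights, centring, quantile normalization, other filters, the mean of probe sets, a replicate block, Welch statistics and each array left out; 2 more were added after seeing the data. No sequence of the snoRNAs themselves was at hand, so none is shown.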

Additional observations from a re-analysis of the deposited data

Results flagged for a closer look

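In Snora19, RPV replicate 2 measured 3.41 log2 while the other RPV arrays lay between 3.07 and 3.13 log2, a gap that exceeds Dixon's 95% limit for 4 samples. In Snord19, control replicate 1 measured 2.78 log2 while the other control arrays lay between 4.36 and 4.52 log2, past the same limit. Of 78 groups of 4 arrays examined in this way these 2 passed, and chance alone passes about 1 in 20. A block of 16 probe sets with identical values, each annotated with several snoRNA symbols and not among the 72 members, measured 6.31 log2 in RPV replicate 3. The other RPV arrays had 3.15, 3.89 and 2.99 log2 there, and control arrays had 2.70 to 3.33 log2. Since each carries several symbols, no gene is named for them.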

How the results depend on the processing

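Over 20 alternatives, 2 of them added after seeing the data, no snoRNA passed an adjusted p of 0.05 in limma, as in the analysis reported, where 4 were at an unadjusted p under 0.05. That count of 4 was 11 with the replicate block, 2 with Welch statistics per gene, 2 without RPV replicate 2 and control replicate 1 together, 2 with the mean level of the 70 snoRNAs other than Snora75 and Snora30 as a covariate, and 2 to 21 when each array was left out; it was 2 without RPV replicate 2 or control replicate 1, 18 without RPV replicate 4, 21 without control replicate 2 and 6 without control replicate 3. The covariate included every snoRNA but Snora75 and Snora30, so the lower count with it may follow in part from how it was built. Snora75 and Snora30 were among the snoRNAs at an unadjusted p under 0.05 under all 20. C/D members were at such a p only under some alternatives. These were Snord17, Snord73a and Snord73b with the replicate block, and Snord72 without control replicate 3. Without control replicate 4 they were Snord72 and Snord73b. Several C/D members were at such a p without RPV replicate 4, and several without control replicate 2. Of all genes, 5.21% were at such a p in the analysis reported, 6.44% with the replicate block and 3.93% with Welch statistics. That share was 3.28% without both arrays and 4.44% with the covariate. It was 4.21% without RPV replicate 2, 3.47% without control replicate 1 and 9.16% without RPV replicate 4. Without control replicate 2 it was 6.37%, and without control replicate 3 it was 3.54%. The cause of these changes was not tested. Whether the replicate numbers pair the samples was not settled, as so few correlations cannot decide it. Same-numbered arrays had correlations of -0.25, 0.46, -0.09 and 0.07 in their deviations from the group means. Those of differently numbered arrays ran from -0.47 to 0.39. Leaving out 1 array moved the median of the 72 snoRNAs between 0.13 and 0.44 log2, that of the H/ACA members between 0.21 and 0.49 and that of the C/D members between 0.04 and 0.42; the host median moved between -0.17 and -0.02. Without both arrays the H/ACA median was 0.081 log2, the same sign as with all arrays. The other medians changed sign: -0.067 log2 for the C/D members, -0.012 log2 for the 72 snoRNAs and 0.034 log2 for the hosts.

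Differences of 13 named snoRNAs changed sign under some alternative, among them Snord66 and Snord19, with 0.51 and 0.45 log2 over all arrays. Without both arrays they were -0.013 (Snora33), -0.23 (Snord118), -0.034 (Snord13), -0.051 (Snord19), -0.23 (Snord35a), -0.19 (Snord47), -0.30 (Snord52), -0.0010 (Snord66) and -0.15 log2 (Snord99). With the covariate they were -0.041 (Snora33), -0.24 (Snord118), -0.056 (Snord13), -0.24 (Snord35a), -0.020 (Snord37), -0.13 (Snord47), -0.20 (Snord52) and -0.11 log2 (Snord99). The covariate is itself a mean over snoRNAs that include each of these. Some of its members must then have a negative difference, so these sign changes are in part set by construction. Each of these snoRNAs also changed sign under another alternative given here. Snord35a was -0.0082 with array weights, and Snora33 -0.011 as the mean of its probe sets. With each array left out, the ranges were -0.0046 to 0.14 (Snora33), -0.25 to 0.021 (Snora73a), -0.22 to 0.017 (Snora73b), -0.15 to 0.010 (Snord104), -0.14 to 0.25 (Snord118), -0.11 to 0.20 (Snord35a), -0.23 to 0.45 (Snord37), -0.078 to 0.21 (Snord47), -0.016 to 0.57 (Snord52) and -0.041 to 0.18 log2 (Snord99). The other 22 kept their sign under each alternative that gave them a value.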

Other observations

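Probe sets annotated with several snoRNA symbols were read apart, as distinct profiles with no gene named. There were 43 such probe sets with 28 distinct profiles, the block of 16 identical ones counted once, of which 22 had a higher and 6 a lower mean in RPV livers, with a median difference of 0.14 log2 and none at an unadjusted p under 0.05 in limma. Their mean deviation was 0.22, 0.26, 0.00 and -0.14 log2 in RPV replicates 1 to 4 and -0.52, 0.29, -0.05 and -0.06 log2 in control replicates 1 to 4. Snord91a, under the level threshold, measured 2.42, 2.91, 2.24 and 2.40 log2 in RPV livers and 2.19, 2.26, 2.07 and 2.29 log2 in control livers.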
